A study of Homo sapiens with 3 samples.

Results

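The heat shock proteins, J-proteins and chaperonins of H128 cells, their helpers of the BAG family included, were selected by gene symbol. The members were DNAJA, DNAJB and DNAJC genes, HSPA and HSPB genes, HSPD1, HSPE1, HSPH1, HSP90AA1, HSP90AB1 and HSP90B1, BAG1 to BAG6, TCP1 and the CCT subunits. This gave 85 of the 17448 genes listed, and 79 of them, among 14031 genes in all, had at least 10 counts in at least 1 library.

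H128 is an established human SCLC line grown in RPMI1640 with serum. The cells had been transfected for 48 h with the control siRNA siCont or with siERRG2 or siERRG3, siRNAs against ESRRG, the gene of the nuclear receptor ERRγ. Which sequence each ESRRG siRNA has is not given by the labels, and the drug DN200434, which the treatment notes also mention, is in the label of none of these libraries. The 3 groups were 1 library each, all from the same cell line, so differences between them carry no replicate check and no test.

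Cells keep their proteins folded with a small set of chaperone machines. HSP70 proteins bind short hydrophobic stretches of unfolded chains and release them in cycles driven by ATP. J-proteins, named DNAJA, DNAJB or DNAJC, deliver the chains and trigger ATP hydrolysis, whereas HSP110 and BAG proteins drive out the spent nucleotide. HSP90 proteins act later, on nearly folded clients such as kinases and steroid receptors. Chaperonins are closed barrels: TRiC, built of TCP1 and the CCT subunits, folds actin and tubulin in the cytosol, and HSPD1 with its lid HSPE1 serves the mitochondrial matrix. Small heat shock proteins hold unfolded chains without ATP. Separate HSP70 and J-proteins work in the cytosol, the endoplasmic reticulum (ER) and mitochondria, and the heat shock factor HSF1 and the unfolded protein response of the ER raise different subsets of them.

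Each library held between 19861937 and 20016780 estimated counts. ESRRG had 806 counts with siCont, 211 with siERRG2 and 230 with siERRG3, so both knockdown libraries matched their labels. All 7 SCLC neuroendocrine markers examined were present, from 8.42 FPKM for DLL3 to 183 FPKM for INSM1 in siCont, while PTPRC of leukocytes stood at 0.40 FPKM and VWF of endothelium at 0. The neuroendocrine list summed to 634 FPKM with siCont, 531 with siERRG2 and 517 with siERRG3, and INSM1 and NEUROD1 had their lowest values in siERRG2 and siERRG3, respectively. The 4 leukocyte genes summed to 3.77 to 4.05 FPKM, the 5 fibroblast genes to 22.8 to 32.5 FPKM, mostly from COL1A2, and the 3 endothelial genes to 7.24 to 19.8 FPKM, mostly from CDH5, which was lowest in siERRG3. The part of such shifts in the values below was not tested.

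Where 3 counts stand in a row, they are those of siCont, siERRG2 and siERRG3. A fold change here is the ratio of TMM-scaled counts after adding a prior count of 2, and a gene is called higher or lower at 1.2-fold. The range given in brackets after a fold change is a 95% exact interval (Clopper-Pearson) for the ratio of scaled counts, which covers counting error only and says nothing of the variation between cultures. Levels of different genes are compared in FPKM, a count per transcript length and library size. Both knockdown libraries were set against the same siCont library, so their values are given side by side. In bulk libraries fewer cells of a type and less RNA per cell cannot be told apart.

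Regulatory sequences of several of these genes are short and well defined. They are printed here because the motif matched in a few ER members differed from that matched in a few others. The promoters are those of RefSeq (GRCh38.p14), 250 bases before to 50 bases after each start site, and 76 of the 85 members had at least 1. The heat shock element, bound by HSF1, was searched as 3 units in a row, GAA and TTC in turn, with any 2 bases between neighbouring units; it was allowed to start with either unit, which covers both strands, and matches may overlap. It was found in 0.49% of the 35116 promoters of all genes, 0.39% of the promoters of listed genes and 7 of 100 member promoters. These belonged to 7 members, DNAJA1, DNAJB6, HSP90AA1, HSP90AB1, HSPA6, HSPA8 and HSPD1. The ER stress element is CCAAT and CCACG with any 9 bases between them, searched on both strands. It was found in 0.0769% of all promoters, 0.116% of the promoters of listed genes and 2 of 100 member promoters. These belonged to 2 members, HSPA5 and HSP90B1. Of members with a promoter, 2 of 12 in the ER had a match to either motif. The same held for 6 of 47 in the cytosol and nucleus and 1 of 10 in mitochondria, so most had none. A member without a match lacks only these letters in these windows. The ERR response element TCAAGGTCA, also searched on both strands, was found in 0.353% of all promoters and in 0 of the member promoters, which says only that these letters are not in these windows. The capitals below mark the matched motif, and each stretch is written 5′ to 3′ on the strand of its gene. The second stretch of HSP90B1 holds the ER stress element in reverse complement.
HSPA8, chr11:123062349-123062371, minus strand: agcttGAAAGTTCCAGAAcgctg
HSPA8, chr11:123062174-123062196, minus strand: gccccTTCTGGAAGGTTCtaaga
HSP90AA1, chr14:102087100-102087152, minus strand: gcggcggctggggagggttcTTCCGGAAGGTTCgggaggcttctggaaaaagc
HSP90AB1, chr6:44247758-44247810, plus strand: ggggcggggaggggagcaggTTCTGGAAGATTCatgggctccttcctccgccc
HSP90AB1, chr6:44247811-44247863, plus strand: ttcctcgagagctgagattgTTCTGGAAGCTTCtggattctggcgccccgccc
DNAJB6, chr7:157336853-157336905, plus strand: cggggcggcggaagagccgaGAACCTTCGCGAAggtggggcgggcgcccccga
HSPD1, chr2:197500063-197500090, minus strand: gcattTTCTGGAAAGTTCTGGAAccgag
HSPA5, chr9:125241371-125241429, minus strand: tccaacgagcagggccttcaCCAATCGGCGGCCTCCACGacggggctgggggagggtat
HSP90B1, chr12:103930211-103930239, plus strand: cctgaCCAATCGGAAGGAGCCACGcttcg
HSP90B1, chr12:103930316-103930344, plus strand: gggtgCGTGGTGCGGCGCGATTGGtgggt

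A few chaperones were among the most abundant transcripts of H128 cells, and others had almost no counts. The 85 members took 2.12% of all counts in siCont (2.11% to 2.13%), 2.22% in siERRG2 (2.21% to 2.23%) and 2.45% in siERRG3 (2.44% to 2.45%). The median member stood at 20.5 FPKM in siCont, against 4.39 FPKM for the median of all listed genes. HSPA8, the constitutive cytosolic HSP70, was the highest of them at 1558 FPKM in siCont and ranked 35 among all genes. It was followed by HSP90AB1 at 837 FPKM and HSP90AA1 at 573 FPKM, then by CCT3, HSPD1 and HSPB1. Summed over members, the cytosol and nucleus held 6890 FPKM in siCont, mitochondria 1063, the ER 602 and the other membranes 93.6. Among members of the ER the highest were HSP90B1 at 263 FPKM, HSPA5 at 192 and DNAJB11 at 57.6. Among those of mitochondria they were HSPD1 at 485 FPKM, HSPE1 at 223 and HSPA9 at 174.

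**Figure D1:**
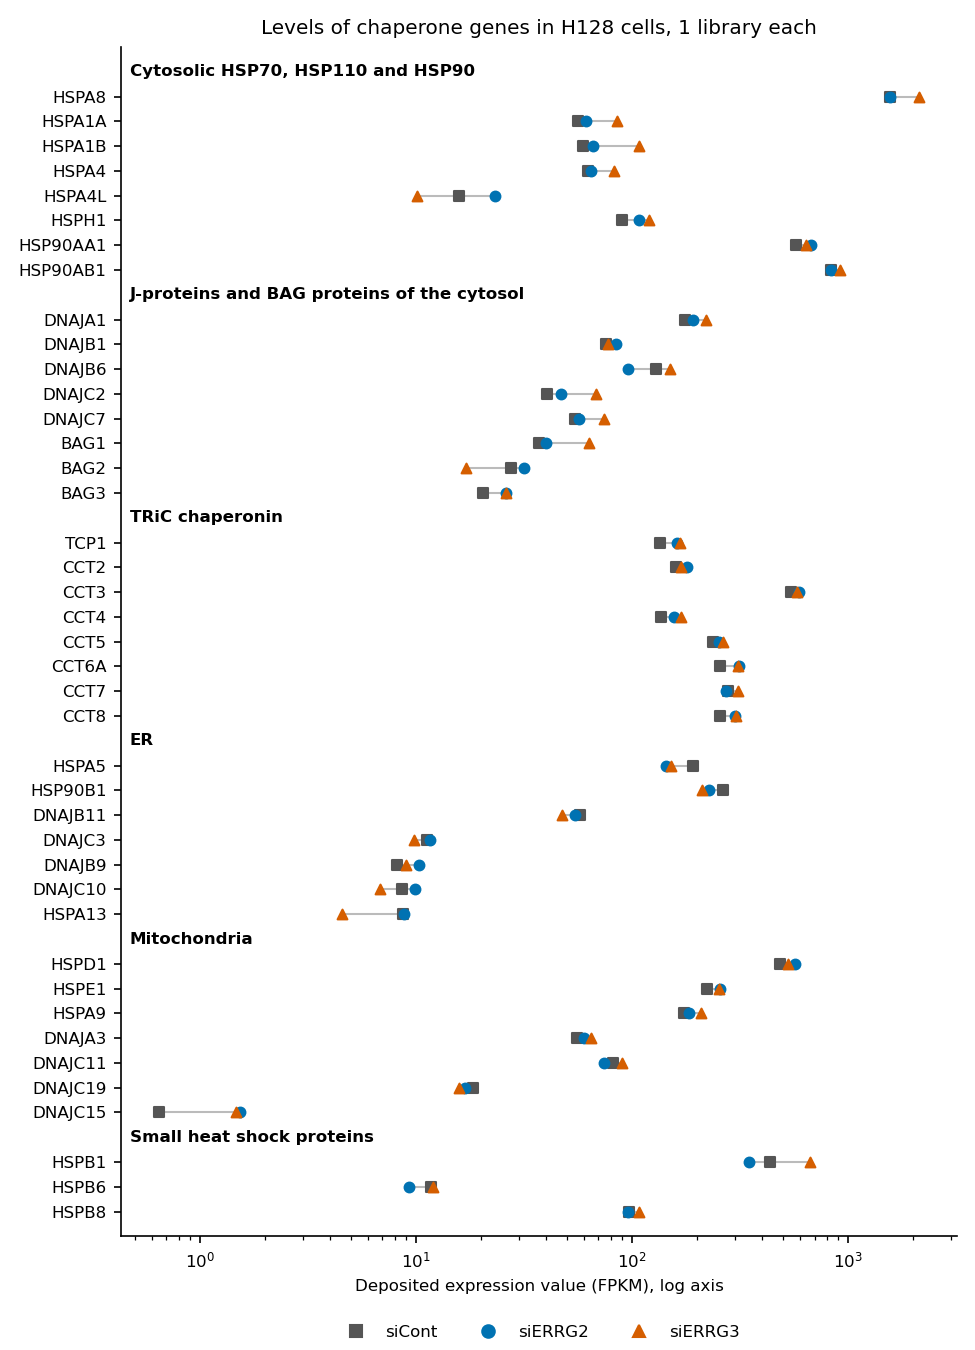
Level of 41 chaperone genes in each library, as the deposited expression value in FPKM on a log axis; each symbol is 1 library and the grey line joins the lowest and highest. HSPA8 lies furthest to the right at 1558, 1555 and 2129 FPKM in siCont, siERRG2 and siERRG3, and DNAJC15 furthest to the left at 0.65, 1.53 and 1.47 FPKM.

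In siERRG2, 9 of the 79 members above the count minimum were called higher than in siCont and 11 lower, or 11.4% and 13.9%. The shares among all genes were 16.4% and 19.2%, so both member shares lay below them. In siERRG3, 26 members were higher and 15 lower, that is 32.9% and 19.0%, beside 23.2% and 25.1% of all genes. The median log2 fold change of the members was 0.07 in siERRG2 and 0.15 in siERRG3, where the median of all genes was -0.0004 and -0.0033. By compartment, the medians in siERRG3 were 0.23 for the 48 cytosolic and nuclear members, 0.14 for the 10 mitochondrial ones, -0.21 for the 13 of the ER and -0.22 for the 8 of other membranes and cilia. In siERRG2 these medians were 0.09, 0.14, -0.06 and 0.02. The ER members had 1 called higher and 2 lower in siERRG2, and 0 higher and 6 lower in siERRG3. The cytosolic and nuclear ones had 5 higher and 8 lower in siERRG2, and 22 higher and 3 lower in siERRG3.

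In either direction 20 members were called in siERRG2, 41 in siERRG3 and 34 between the knockdown libraries, or 25.3%, 51.9% and 43.0%, beside 35.5%, 48.3% and 51.7% of all genes. Among genes with a mean of 50 counts or more, 13, 38 and 30 of 71 members were called, or 18.3%, 53.5% and 42.3%, beside 28.2%, 43.9% and 47.1%. At 1.5-fold the numbers were 7, 15 and 17 of 79, or 8.86%, 19.0% and 21.5%, beside 11.3%, 18.4% and 20.7%. Of the 38 members whose counts were whole numbers, 6 were called higher and 5 lower in siERRG2, beside 15.8% and 19.2% of all genes with whole counts. In siERRG3 9 were higher and 9 lower, or 23.7% each, beside 22.4% and 25.8%, so the excess of higher over lower calls among all 79 was not seen in these 38. Between the knockdown libraries 7 were higher and 8 lower, beside 25.8% and 25.7%, and in either direction the shares of all such genes were 35.1%, 48.3% and 51.5%. Counting instead each gene whose interval left out 1 gave 47, 60 and 62 of 79, or 59.5%, 75.9% and 78.5%, beside 44.0%, 55.5% and 57.5%, a rule under which abundant genes, with narrow intervals, are called at smaller differences. By this rule 33 were higher and 14 lower in siERRG2, beside 21.7% and 22.4% of all genes, so the balance was the reverse of that at 1.2-fold. In siERRG3 44 were higher and 16 lower, beside 27.1% and 28.5%, and between the knockdown libraries 42 were higher and 20 lower, beside 29.1% and 28.4%.

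**Figure D2:**
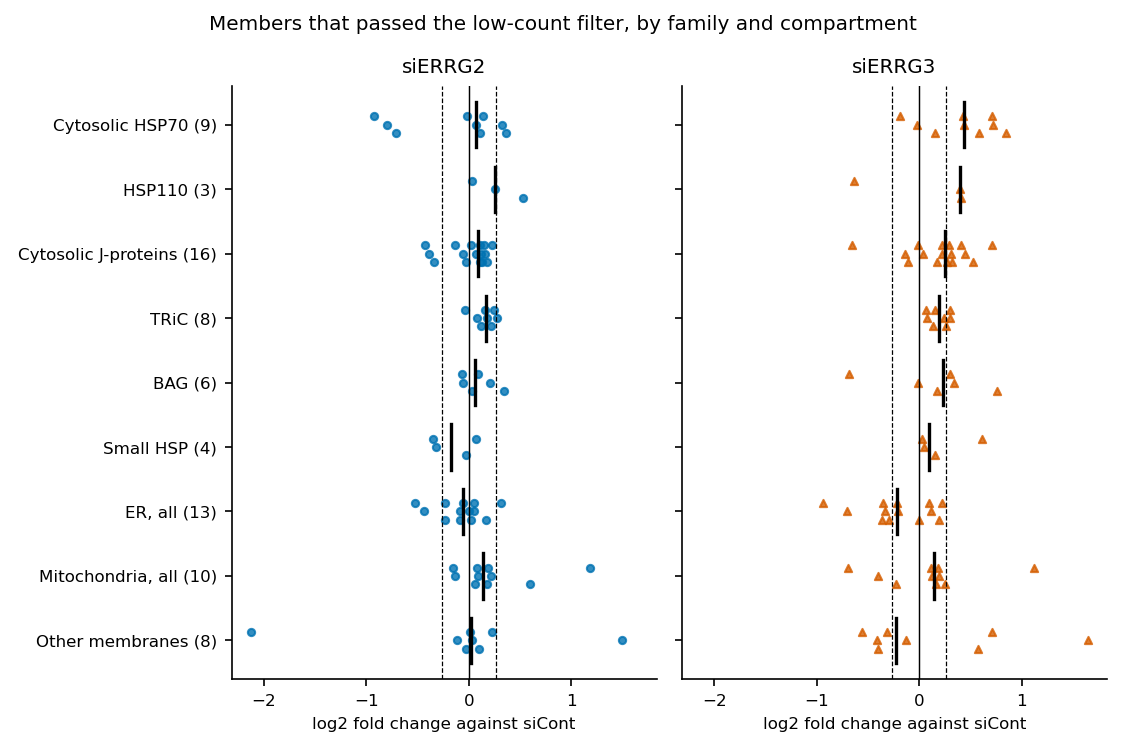
Log2 fold change against siCont of each member that passed the low-count filter, by family or compartment, with siERRG2 on the left and siERRG3 on the right; the number of genes is in brackets, the black bar is the median and the dashed lines mark 1.2-fold. The cytosolic HSP70 group has a median of 0.07 in siERRG2 and 0.43 in siERRG3, and the ER group one of -0.06 and -0.21.

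Of 9 cytosolic HSP70 genes, 6 were called higher and 0 lower in siERRG3, and 2 higher and 3 lower in siERRG2. The shares of all genes were 23.2% and 25.1% in siERRG3, and 16.4% and 19.2% in siERRG2. HSPA2 and HSPA12B were among the genes called in both libraries and HSPA6 among those in siERRG2, and each of these calls had an interval that held 1. HSPA8 had 69986 counts with siCont, 69971 with siERRG2 and 96153 with siERRG3. It was within 1.2-fold of siCont in siERRG2, at 0.988-fold (0.978 to 0.999), and higher in siERRG3, at 1.35-fold (1.34 to 1.36). This gene alone made up 40.9% of the gain in library-scaled counts summed over all 85 members in siERRG3. Without it the FPKM sum of the cytosolic and nuclear members was 1.18-fold higher in siERRG3, against 1.22-fold with it. The FPKM sum of all genes was itself 1.04-fold higher there.

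HSPA1A and HSPA1B, neighbouring copies that encode the stress-inducible HSP70, share nearly all of their sequence. Their counts were not whole numbers, so the split of reads between them is uncertain. HSPA1A had 2730, 2973 and 4158 counts, and HSPA1B had 2972, 3314 and 5440. Their sum, which does not depend on the split, was 1.09-fold higher in siERRG2 (1.05 to 1.13) and 1.66-fold higher in siERRG3 (1.6 to 1.71).

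HSPA14, the HSP70 of the ribosome-associated complex, had 2091 counts with siCont, 2642 with siERRG2 and 2852 with siERRG3. It was higher in both, at 1.25-fold (1.18 to 1.32) and 1.34-fold (1.27 to 1.42). HSPA12A, a distant relative of the family, was lower in siERRG2, with 396, 230 and 354 counts and a ratio there of 0.576 (0.486 to 0.677). Its counts were not whole and it overlaps ENO4. The remaining cytosolic HSP70 genes had low counts. HSPA6, which is silent outside strong stress, had 8, 11 and 8 counts, HSPA1L had 29, 31 and 33, HSPA2 had 19, 11 and 33 and HSPA12B had 13, 6 and 23. Every interval of these 4 genes against siCont held 1.

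The HSP110 genes encode the large nucleotide exchange factors of HSP70. HSPH1 had 6042 counts with siCont, 7303 with siERRG2 and 8162 with siERRG3, a fold change of 1.19 (1.15 to 1.24) and 1.33 (1.28 to 1.37). HSPA4 was close to siCont in siERRG2 at 1.02-fold (0.981 to 1.07) and higher in siERRG3 at 1.31-fold (1.26 to 1.37). HSPA4L, the third of them, whose counts were not whole numbers, went to opposite sides of siCont. It had 1246 counts with siCont, 1825 with siERRG2 and 812 with siERRG3, which is 1.45-fold higher (1.35 to 1.56) and 0.641 times as high (0.586 to 0.701).

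Neither cytosolic HSP90 gene reached 1.2-fold in either library. HSP90AA1, the inducible form, had 38550, 45580 and 43354 counts, or 1.17-fold and 1.11-fold. HSP90AB1, the constitutive form, had 43822, 43920 and 48121 counts, or 0.991-fold and 1.08-fold. As a result the level of HSP90AA1 relative to HSP90AB1 was 0.684 in siCont, 0.809 in siERRG2 and 0.694 in siERRG3. Both genes hold a heat shock element in the stretches printed above, as does HSPA8, and their fold changes differed.

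Among 16 J-protein genes of the cytosol and nucleus that passed the filter, 0 were higher and 3 lower in siERRG2, beside 16.4% and 19.2% of all genes, and 8 were higher and 1 lower in siERRG3, beside 23.2% and 25.1%. DNAJA1, the main class A partner of HSP70, was the highest of them at 176 FPKM in siCont. It had 8375, 9166 and 10560 counts, and was higher in siERRG3 at 1.24-fold (1.2 to 1.28). DNAJA2, of the same class, reached 1.16-fold in siERRG3 (1.10 to 1.23). DNAJB1, the heat-inducible class B protein, stayed near siCont at 1.11-fold in siERRG2 (1.06 to 1.16) and 1.03-fold in siERRG3 (0.979 to 1.08).

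DNAJC2, the ribosomal partner of HSPA14, showed the largest change of the cytosolic J-proteins. It had 1498 counts with siCont, 1773 with siERRG2 and 2489 with siERRG3, which is 1.17-fold (1.09 to 1.25) and 1.63-fold (1.53 to 1.74), and its counts were not whole numbers and it overlaps PMPCB. DNAJC7, which carries clients between HSP70 and HSP90, was higher in siERRG3 at 1.36-fold (1.28 to 1.44). DNAJC21, a factor of ribosome assembly, reached 1.23-fold there and DNAJC9, a histone chaperone, 1.21-fold. DNAJB2 and DNAJB4 were likewise higher in siERRG3, at 1.25-fold and 1.33-fold, and neither reached 1.2-fold in siERRG2.

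DNAJB6, which suppresses aggregation, moved the other way in siERRG2. It had 4216 counts with siCont, 3165 with siERRG2 and 4842 with siERRG3, or 0.742 times siCont (0.708 to 0.777) and 1.13-fold (1.08 to 1.18). DNAJB5 was lower in siERRG3 alone by the threshold, with 97, 94 and 62 counts. DNAJC17, a spliceosome component, was lower in siERRG2, with 203, 162 and 191 counts, and it overlaps ZFYVE19, GCHFR and C15orf62. DNAJB7 had 11, 8 and 10 counts, and its interval held 1 in both. DNAJC8, another spliceosome component, and DNAJC12, a partner of the aromatic amino acid hydroxylases, stayed within 1.2-fold of siCont in both libraries.

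DNAJC24, which takes part in diphthamide synthesis, had 635 counts with siCont, 717 with siERRG2 and 932 with siERRG3. Its counts were not whole and it overlaps IMMP1L. By counts it was higher in siERRG3 at 1.44-fold (1.30 to 1.6), while the FPKM values, 14.1, 13.3 and 18.2, put it slightly below siCont in siERRG2.

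Most genes of the TRiC chaperonin stood slightly above siCont in both libraries. Its 8 genes stood between 135 FPKM for TCP1 and 543 FPKM for CCT3 in siCont. In siERRG2 their log2 fold changes ran from -0.04 for CCT7 to 0.28 for CCT6A, with a median of 0.17, and in siERRG3 from 0.07 for CCT2 to 0.30, with a median of 0.20. In 7 of the 8 genes in siERRG2, and in 8 of 8 in siERRG3, the interval of the ratio lay above 1, which held for 21.7% and 27.1% of all genes; abundant genes have narrow intervals. These shifts were small, since only CCT6A passed 1.2-fold in siERRG2 and only CCT4 and TCP1 in siERRG3.

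TCP1, the α subunit, had 6599 counts with siCont, 7914 with siERRG2 and 8237 with siERRG3, or 1.19-fold (1.15 to 1.23) and 1.23-fold (1.19 to 1.27). CCT6A had 13633, 16702 and 16566 counts, or 1.21-fold (1.18 to 1.24) and 1.19-fold (1.17 to 1.22). CCT4 had 6381, 7304 and 7986 counts and CCT8 had 10209, 11990 and 12283. CCT7 was the exception in siERRG2, where it had 10479 counts against 10617 in siCont. CCT3, CCT5 and CCT2 stayed between 1.05-fold and 1.11-fold of siCont in both libraries.

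The small heat shock proteins were set apart by HSPB1, also known as HSP27. It had 7581 counts with siCont, 6124 with siERRG2 and 11804 with siERRG3, which is 0.799 times siCont (0.772 to 0.826) and 1.53-fold (1.49 to 1.58). HSPB8, the partner of BAG3, had 3840, 3808 and 4338 counts and stayed within 1.2-fold in both. HSPB6 was lower in siERRG2, with 337, 267 and 349 counts. HSPB11, listed as IFT25 in RefSeq and known from intraflagellar transport, had 1026, 1088 and 1075 counts. HSPB2, HSPB3, HSPB7 and HSPB9 had at most 5 counts in any library and received no fold change.

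BAG proteins connect HSP70 to degradation and other fates through a shared nucleotide exchange domain. BAG3, which routes clients to autophagy, was higher in both libraries by nearly the same amount. It had 1049 counts with siCont, 1343 with siERRG2 and 1352 with siERRG3, with fold changes of 1.27 (1.17 to 1.37) and 1.27 (1.17 to 1.38). BAG1, which links HSP70 to the proteasome, had 2877, 3102 and 4955 counts, or 1.07-fold (1.01 to 1.12) and 1.69-fold (1.62 to 1.77). BAG2, an inhibitor of the ubiquitin ligase STUB1, had 1105, 1292 and 700 counts, or 1.16-fold (1.07 to 1.25) and 0.624 times siCont (0.566 to 0.685). The level of BAG1 relative to BAG2 was therefore 1.35 in siCont, 1.26 in siERRG2 and 3.72 in siERRG3. BAG4 was higher in siERRG3 at 1.23-fold (1.10 to 1.38), and BAG5 and BAG6 stayed within 1.2-fold in both.

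HSP90B1 and HSPA5, the most abundant of the ER members, were lower than siCont in both libraries. HSPA5, also called BiP, had 15312 counts with siCont, 11421 with siERRG2 and 12181 with siERRG3. Both knockdown libraries were lower, at 0.737 times siCont (0.720 to 0.756) and 0.782 times (0.764 to 0.801). HSP90B1, also called GRP94, had 15015, 12958 and 12103 counts, or 0.853 times (0.833 to 0.874) and 0.793 times (0.774 to 0.812), so that it passed 1.2-fold in siERRG3 and not in siERRG2. These are the members whose promoters hold the ER stress element printed above.

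DNAJB11, the luminal J-protein that hands clients to HSPA5, had 1926 counts with siCont, 1831 with siERRG2 and 1595 with siERRG3. It was lower in siERRG3 at 0.815 times siCont (0.762 to 0.871). DNAJC10, a disulfide reductase of ER-associated degradation, was at 1.13-fold in siERRG2 (1.03 to 1.23) and lower in siERRG3, at 0.775 times (0.705 to 0.850). HSPA13, a small HSP70 of the microsomes, showed the largest fall of all members above a mean of 50 counts in siERRG3, with 698, 707 and 368 counts and a ratio of 0.520 (0.456 to 0.589). DNAJC18, of the ER membrane, had 377, 324 and 234 counts and was lower in siERRG3 at 0.612 times (0.516 to 0.720).

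DNAJB9 was the only ER member called higher in either library. This J-protein, which represses the stress sensor ERN1, had 414 counts with siCont, 522 with siERRG2 and 457 with siERRG3 and was higher in siERRG2 at 1.25-fold (1.09 to 1.42). DNAJB12 of the ER membrane was lower in siERRG2 alone, with 523, 366 and 567 counts. DNAJC3, DNAJC1, DNAJB14, DNAJC14 and DNAJC16 did not reach 1.2-fold in either library. Without HSPA5 and HSP90B1 the FPKM sum of the other 11 ER genes was 0.988 times its siCont value in siERRG2 and 0.889 times its siCont value in siERRG3. For all 13 these ratios were 0.855 and 0.818, so the lower sum in siERRG2 rested on these 2 genes. The FPKM sum of all genes was 1.01 times its siCont value in siERRG2 and 1.04 times in siERRG3.

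**Figure D3:**
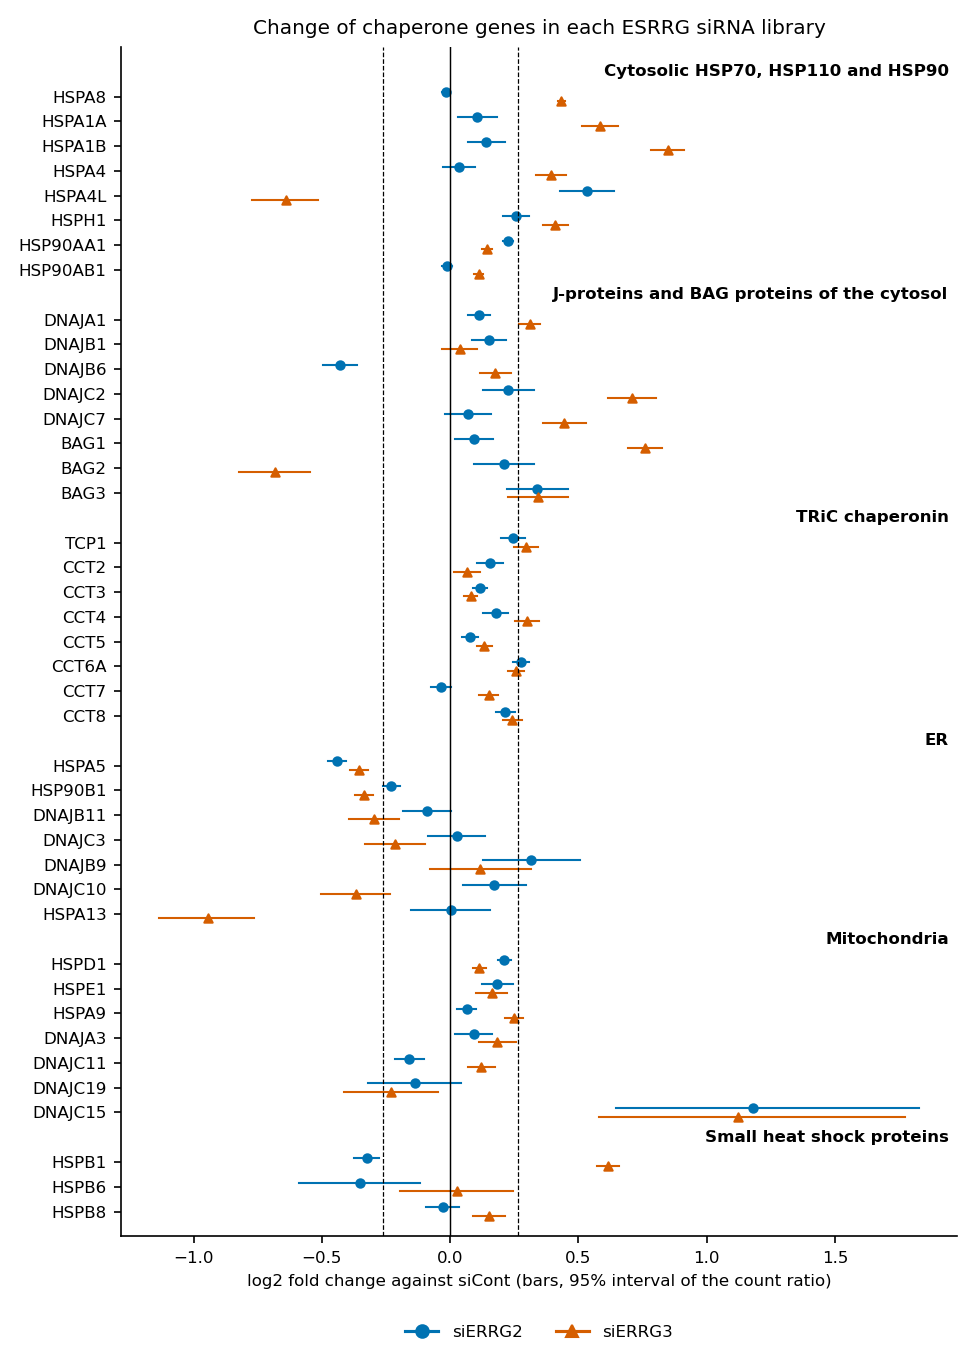
Log2 fold change against siCont of the same 41 genes in siERRG2 (circles) and siERRG3 (triangles); bars are the 95% exact interval and dashed lines mark 1.2-fold. HSPA5 and HSP90B1 lie left of 0 in both libraries, the TRiC genes lie right of 0 except CCT7 in siERRG2, and HSPB1, BAG2, HSPA4L and DNAJB6 are among those whose symbols lie on opposite sides of 0.

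In mitochondria the matrix folding machine was slightly above siCont in both libraries. HSPD1 had 22423 counts with siCont, 26265 with siERRG2 and 24675 with siERRG3, or 1.16-fold (1.14 to 1.18) and 1.08-fold (1.06 to 1.10). Its lid HSPE1, transcribed from the opposite strand of the same region of chromosome 2, had 4141, 4755 and 4710 counts, or 1.14-fold (1.09 to 1.18) and 1.12-fold (1.07 to 1.17). HSPE1 overlaps the read-through gene HSPE1-MOB4, and its counts were not whole. The level of HSPD1 relative to HSPE1 stayed at 2.17, 2.22 and 2.10. HSPA9, the mitochondrial HSP70, had 12231, 12937 and 14795 counts, or 1.05-fold (1.02 to 1.07) and 1.19-fold (1.16 to 1.22). DNAJA3, its class A partner, reached 1.07-fold and 1.14-fold. None of these 4 genes passed 1.2-fold.

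DNAJC15, on chromosome 13 from 43023586 to 43114213 (GRCh38.p14), encodes a J-protein of the inner membrane known as a partner of the import machinery and a brake on complex I. It was chosen because it was known to be among the largest increases in these libraries, so its values are a description. It had 36 counts with siCont, 85 with siERRG2 and 82 with siERRG3, all whole numbers. The fold changes were 2.26 (1.56 to 3.55) and 2.18 (1.5 to 3.41), the largest of any member with a mean of at least 50 counts in either library. The level remained low, at 0.65, 1.53 and 1.47 FPKM. DNAJC19, its relative at the import motor, had 527, 484 and 457 counts and stood 28.3 times higher than DNAJC15 in FPKM in siCont, 11 times in siERRG2 and 10.7 times in siERRG3. DNAJC19 itself did not reach 1.2-fold, at 0.908 times siCont (0.801 to 1.03) and 0.853 times (0.751 to 0.968).

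Among the other mitochondrial J-proteins, DNAJC4 was lower in siERRG3 alone by the threshold, with 266, 284 and 166 counts and a ratio there of 0.617 (0.502 to 0.748). DNAJC11, which helps to shape the inner membrane, had 5375, 4868 and 5945 counts and stayed within 1.2-fold of siCont in both. DNAJC30 had 586, 672 and 680 counts, or 1.13-fold and 1.14-fold. DNAJC28 had 28, 44 and 21 counts, and both of its intervals against siCont held 1.

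The J-proteins of vesicles, endosomes and cilia carry functions in membrane traffic, which is prominent in neuroendocrine cells. DNAJC6, or auxilin, uncoats clathrin vesicles and had 3391 counts with siCont, 4010 with siERRG2 and 2341 with siERRG3. It was lower in siERRG3 at 0.679 times siCont (0.644 to 0.716) and at 1.17-fold in siERRG2 (1.12 to 1.22). DNAJC5, the cysteine string protein of synaptic vesicles, had 5594, 5539 and 5185 counts and stayed within 1.2-fold. DNAJC13, an endosomal protein, was lower in siERRG3 at 0.752 times (0.680 to 0.830).

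DNAJC25 and DNAJC22 were higher in siERRG3, at 1.49-fold (1.23 to 1.84) and 1.64-fold (1.24 to 2.23), with 164, 178 and 250 counts for the former and levels of 0.95, 0.83 and 1.57 FPKM for the latter. DNAJC25 overlaps the read-through gene DNAJC25-GNG10 and its counts were not whole, so its value is uncertain. DNAJC27 had 113, 117 and 92 counts, and its interval in siERRG3, 0.601 to 1.06, held 1. DNAJB13, a protein of motile cilia, had 4, 15 and 17 counts, with intervals of 1.18 to 15.3 and 1.36 to 17.1, and DNAJC5G had 11, 1 and 8, with intervals of 0.00209 to 0.618 and 0.250 to 1.95. DNAJC5B and DNAJA4 had at most 2 counts in any library.

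The knockdown libraries were also compared with each other, without siCont. Of the 79 members, 22 were at least 1.2-fold higher in siERRG3 than in siERRG2 and 12 lower, or 27.8% and 15.2%, beside 26.4% and 25.3% of all genes (51.7% in either direction). HSPB1 was 1.92-fold higher in siERRG3 (1.86 to 1.98), HSPA1B 1.63-fold (1.56 to 1.71), BAG1 1.59-fold (1.52 to 1.66), DNAJB6 1.52-fold (1.45 to 1.59) and HSPA8 1.37-fold (1.35 to 1.38). HSPA4L was at 0.443 times its siERRG2 level (0.407 to 0.481), HSPA13 at 0.519 times (0.455 to 0.588), BAG2 at 0.540 times (0.491 to 0.591) and DNAJC6 at 0.581 times (0.552 to 0.611). In contrast, 0 of the 8 TRiC genes, 0 of the 2 mitochondrial chaperonin genes and 0 of the 3 HSP90 genes passed 1.2-fold. DNAJC15 was at 0.961 times (0.700 to 1.32) and BAG3 at 1.0 times (0.928 to 1.08).

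Other genes of the same pathways, 61 in all, were described by list. Together 6 were higher and 8 lower in siERRG2, both shares below those of all genes, 16.4% and 19.2%. In siERRG3 17 were higher and 8 lower, beside 23.2% and 25.1% of all genes. The same shares stand behind the counts of each list, which are small. Of 4 genes of the heat shock factor list, 0 passed 1.2-fold in siERRG2, and in siERRG3 HSF4 was called higher, with 75, 68 and 94 counts and an interval that held 1 (0.900 to 1.69), and HSBP1, which inhibits HSF1, lower. HSF1 had 1710 counts with siCont, 1822 with siERRG2 and 2016 with siERRG3, and HSF2 had 963, 1085 and 1152. Of 16 co-chaperones of HSP70 and HSP90, 4 were higher and 2 lower in siERRG2 (all genes, 16.4% and 19.2%), and 7 were higher and 0 lower in siERRG3 (23.2% and 25.1%). CDC37, which loads kinases onto HSP90, was at 1.21-fold and 1.33-fold, and CHORDC1, an HSP90 partner, had 1863, 1834 and 3075 counts. FKBP5, an HSP90-bound immunophilin, was lower in siERRG2, with 734, 531 and 745 counts. Of the 6 prefoldin genes, which pass actin and tubulin to TRiC, 0 passed the threshold in siERRG2 and PFDN2 was higher in siERRG3.

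Of 12 ER folding genes, 0 were higher and 3 lower in siERRG2 (all genes, 16.4% and 19.2%), and 0 were higher and 5 lower in siERRG3 (23.2% and 25.1%), with medians of -0.15 and -0.20. CALR, the calcium-binding lectin chaperone, had 25734 counts with siCont, 12749 with siERRG2 and 21686 with siERRG3, or 0.490 and 0.829 times. HYOU1, the HSP110 of the ER, had 8125, 6442 and 6036 counts. SIL1, the nucleotide exchange factor of HSPA5, was lower in siERRG2, and PDIA4, MANF and SEL1L were lower in siERRG3, while CANX had 14798, 14657 and 14623 counts. Of 5 ER stress genes, 2 were higher and 0 lower in siERRG2, and 2 higher and 1 lower in siERRG3. DDIT3, a stress-induced transcription factor, had 321, 314 and 767 counts and EIF2AK3, the sensor PERK, had 348, 532 and 287.

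The list of the mitochondrial import motor and matrix proteases held 15 genes. In siERRG2, 0 were higher and 2 lower, these being TRAP1 and CLPP (all genes, 16.4% and 19.2%), and in siERRG3, 6 were higher and 0 lower (23.2% and 25.1%). GRPEL1, the nucleotide exchange factor of HSPA9, had 2604, 2874 and 3558 counts, and PAM16, which pairs with DNAJC19 at the motor, had 674, 610 and 1023. LONP1, the matrix protease, had 5918, 6991 and 7403 counts. Among J-proteins with other symbols, SEC63 was at 0.788 times siCont in siERRG2, HSCB was at 1.49-fold in siERRG3 and GAK stayed within 1.2-fold in both libraries.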

How the data were processed

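RNA of H128 cells was sequenced in 3 libraries, 1 per siRNA. Per the labels, libraries were made with a directional NEBNext kit for paired-end reads, and the submitters' processing notes name TopHat2, HTSeq and DESeq2 with builds GRCh38, hg19 and hg38. The methods of the study instead name single-end reads, BWA, Bowtie 2 and GRCh37, and the program behind the fractional counts is not given in the sources used here. The authors deposited an estimated count per gene (expected count), not normalized, and an expression value taken as FPKM: for genes above 500 counts the count per expression value changed by 1.002 and 1.009 times in siERRG2 and siERRG3, as the library totals did. The deposited log2 ratios and Poisson p-values are the authors' comparisons and were not used. Gene positions in the table overlapped those of RefSeq GRCh38.p14 for all 85 members, and the RefSeq positions are printed.

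Counts were rounded, genes were kept where any library reached 10 counts, and libraries were scaled by TMM (edgeR 4.0.16, R 4.3.3; factors 0.994, 1.003 and 1.003). Log2 CPM were taken with a prior count of 2 and called at 1.2-fold, the threshold of the study. Intervals came from SciPy 1.17.1. The computation was tested on simulated data. Counts were whole, within 0.01, in all libraries for 44 members and not for 41, and 23 members overlap another listed gene. Those 41 include, beside members flagged above, HSPA14, HSPH1, HSPA5, HSP90AA1, HSPD1, BAG1, BAG4, DNAJC6, DNAJC7, DNAJC18, DNAJC22 and TCP1. Whether reads were counted by strand is not given in the sources used here. With 1 library per group no spread between cultures could be estimated, and no other libraries were analysed. Alternatives were total counts, DESeq2 1.42.0 size factors, FPKM with a pseudocount of 0.1 or 1, no filter, a prior count of 0.5, a minimum mean of 50 counts, members with whole counts, 1.5-fold, and the interval in place of a fold. Named were DNAJC15, the 6 largest rises and falls per comparison among members averaging 50 counts or more, the 3 highest levels per compartment, a fixed set of core chaperones and the genes of the pathway lists; any other name was chosen with its values in view. The members and lists were chosen with earlier results of these data known. Compartments were assigned from general knowledge of the proteins.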

Additional observations from a re-analysis of the deposited data

Results flagged for a closer look

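In 5 members the knockdown libraries lay at least 1.2-fold from siCont on opposite sides. With 1 library on each side, the difference between the siRNAs was not tested. The log2 difference of siERRG3 from siERRG2 was 0.94 for HSPB1 and -1.17 for HSPA4L, both on more than 800 counts in every library. The counts of HSPB1 were whole numbers and those of HSPA4L were not. The log2 difference was -1.01 for DNAJC28, 1.64 for HSPA12B and 1.42 for HSPA2, each on at most 44 counts in any library.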

How the results depend on the processing

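In the main setting 20 members were called in siERRG2, 41 in siERRG3 and 34 between the knockdown libraries. Each number stayed within 1.5 times with total counts, DESeq2 size factors, FPKM, a prior count of 0.5 and no filter. The comparison with all genes was less stable. By FPKM with a pseudocount of 1, 16 of 79 members were called in siERRG2, beside 21.1% of all genes instead of 35.5%. The member share there was close to that of all genes. In siERRG3 37 of 79 were called by this setting, while the share of all genes fell below the 48.3% of the main setting. There the member share exceeded that of all genes by a wider margin than in the main setting. A minimum mean of 50 counts left 13 in siERRG2. Members with whole counts alone numbered 38, and 11, 18 and 15 of them were called, beside 35.1%, 48.3% and 51.5% of all such genes. In siERRG3 these were 9 higher and 9 lower, against 26 and 15 of the 79, and the cause was not tested. At 1.5-fold the numbers were 7, 15 and 17, beside 11.3%, 18.4% and 20.7% of all genes. With the interval in place of a fold, 47 members were called in siERRG2 and 62 between the knockdown libraries, beside 44.0% and 57.5% of all genes. The member medians stayed between 0.05 and 0.08 in siERRG2 and between 0.13 and 0.17 in siERRG3. Of 1005 log2 fold changes of named members recomputed, 14 left their counting interval, all with FPKM, and 0 called values changed sign. With FPKM and a pseudocount of 1, that of DNAJC15 in siERRG2 was 0.62 instead of 1.18. The median of class B J-proteins in siERRG2 was -0.06 with counts and 0.12 with FPKM and a pseudocount of 0.1. The sum over HSPA1A and HSPA1B and the sums that leave out HSPA8, or HSPA5 and HSP90B1, were chosen after seeing the data. No paired analysis was possible because each group had 1 library, and for the same reason no replicate could be left out.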

Other observations

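The motif search was extended to the genes of the pathway lists. The ER stress element was found in promoters of CALR, CANX, PDIA6, CRELD2 and XBP1. In siERRG2 the log2 fold change was -1.03 for CALR, -0.03 for CANX, 0.03 for PDIA6, -0.19 for CRELD2 and -0.13 for XBP1. In siERRG3 these values were -0.27 for CALR, -0.04 for CANX, -0.17 for PDIA6, 0.07 for CRELD2 and -0.25 for XBP1. The heat shock element was found in a promoter of CHORDC1, which stood at -0.04 on the log2 scale in siERRG2 and at 0.70 in siERRG3. Within the members, those that hold the heat shock element ranged in siERRG2 from -0.43 for DNAJB6 to 0.23 for HSP90AA1, leaving out HSPA6, which had at most 11 counts. In siERRG3 DNAJA1 was at 0.31, DNAJB6 at 0.18, HSP90AA1 at 0.15, HSP90AB1 at 0.11, HSPA8 at 0.43 and HSPD1 at 0.11. Each of these 6 had an interval above 1, as did 44 of all 79 members and 27.1% of all genes. Abundant genes have narrow intervals, and a part of the motif in these values was not tested.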
